A study of Mus musculus with 6 samples.

Results

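Snap25, Syn1, Dnm1 and Thy1 are 4 neuronal genes that appear in RNA of microglia, the resident macrophages of the brain, from mice of the 5×FAD line that models Alzheimer's disease. They were taken by gene name, for their roles in vesicle fusion, vesicle tethering, vesicle retrieval and the surface of projection neurons. All 4 were found in the authors' table of 466 genes, which holds only genes chosen because microglial Piezo1 knockout and control differed. The direction of each gene, lower in the knockout, therefore came with that selection, and the tests below, which run on the same samples, are not independent of it.

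Libraries of poly(A) RNA were made from microglia isolated from adult male brain on the C57BL/6N strain. The knockout group (3 samples, named knockouts 1 to 3 here) carried Cx3cr1CreER-EYFP, floxed Piezo1 on both alleles and the 5×FAD transgenes. The control group (3 samples, controls 1 to 3) were littermates with floxed Piezo1 and 5×FAD and no Cre allele named. All mice received tamoxifen at 20 mg/kg on 4 days from 4.5 weeks of age, and Piezo1 encodes a mechanically gated cation channel. The Cre sits in the Cx3cr1 locus and is active in microglia and other Cx3cr1-expressing macrophages, so Piezo1 loss and the Cre allele cannot be told apart here. The 5×FAD transgenes, carried by both groups, are known to be expressed from a cassette built on Thy1, so reads of any Thy1 sequence in its transcripts could be counted as Thy1. The part of such reads in the Thy1 values was not tested.

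Neurons release transmitter from vesicles that dock at the presynaptic membrane, fuse with it and are taken back. Snap25 encodes a SNARE protein that drives fusion, Syn1 encodes synapsin I, which tethers vesicles to each other and to actin, and Dnm1 encodes dynamin 1, the GTPase that pinches retrieved vesicles off the membrane. Thy1 encodes a lipid-anchored glycoprotein abundant on projection neurons and also present on T cells and fibroblasts. Microglia are not known as a main source of these transcripts, while they contact synapses and engulf neuronal material. In bulk RNA such as this, fewer cells of a type and less RNA per cell cannot be told apart.

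The sequences before the starts of Syn1 and Dnm1 are shown, as the members of the group that matched the promoter table, to compare the upstream letters of a tethering and a retrieval gene. They are the 250 bases before the RefSeq start (GRCm38.p6), written 5′ to 3′ on the gene's strand. Promoters of 2 of the 4 genes were matched. The Syn1 window is chrX:20920919-20921168, minus strand. The Dnm1 window is chr2:32353330-32353579, minus strand, and lies inside the span of Ciz1, which runs on the other strand. Both windows reach into the annotated spans of their own genes, which begin at 20921004 for Syn1 and 32353338 for Dnm1. Positions below are therefore counted from the RefSeq start only. Capitals mark matches to motifs searched on both strands: the cyclic AMP response element TGACGTCA, the left arm TTCAGCACC of RE1, the element bound by the neuronal gene repressor REST, and the GC box GGGCGG.
Syn1: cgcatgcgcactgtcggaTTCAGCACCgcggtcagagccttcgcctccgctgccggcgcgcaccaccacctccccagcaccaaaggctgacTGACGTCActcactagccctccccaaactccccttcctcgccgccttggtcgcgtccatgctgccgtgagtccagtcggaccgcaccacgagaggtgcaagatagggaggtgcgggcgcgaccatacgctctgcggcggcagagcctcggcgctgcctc
Dnm1: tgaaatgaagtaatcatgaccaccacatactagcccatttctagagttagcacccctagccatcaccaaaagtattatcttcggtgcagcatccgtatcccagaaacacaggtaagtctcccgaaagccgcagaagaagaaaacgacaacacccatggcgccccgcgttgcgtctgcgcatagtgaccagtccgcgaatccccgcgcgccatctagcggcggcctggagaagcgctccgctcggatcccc
Counted back from the start, Syn1 held TTCAGCACC at -232 to -224 and TGACGTCA at -159 to -152, with no overlap between them, and no GGGCGG. The Dnm1 window held none of the 3 motifs. Of the 32851 promoter windows of this length in the table, 0.301% held TTCAGCACC, 1.55% TGACGTCA and 32.7% GGGCGG. These matches are descriptions of letters, not of bound sites. The GC content was 68.0% for Syn1 and 55.6% for Dnm1, against a median of 52.4% over all windows.

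The levels below are normalised read counts, which are the authors' gene counts divided by a size factor per sample. Reads recovered from them over all 466 genes ranged from 49643 to 180760 per sample, a sum over selected genes and not a library depth, and the depth is unknown. Piezo1 is not in the table and was not analysed here, so it gave no check of the genotypes. Of 14 microglial markers, Cx3cr1 was in the table, at 27906 to 35698 normalised reads in knockouts and 58569 to 79363 in controls, and the other 13 were not analysed here. The 4 neuronal genes thus stood far below this microglial transcript in every library. The Cre allele of the knockouts sits in the Cx3cr1 locus, so Cx3cr1 was not used to compare microglial content between the groups.

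Snap25 (ENSMUSG00000027273, GRCm38 chromosome 2, positions 136713453 to 136782428, plus strand) had 2.95, 15.3 and 1.01 normalised reads in knockouts 1, 2 and 3. In controls 1, 2 and 3 it had 16.7, 34.9 and 71.4. Every knockout was under every control, but knockout 2 and control 1 were close, at 15 and 17 recovered reads, and the value of knockout 3 is 1 read. The means were 6.43 ± 7.76 and 41.0 ± 27.9 (SD, n = 3 each), or 6.38-fold apart. It was 20.7-fold without knockout 2 and 4.01-fold without control 3. The limma log2 fold change, a difference of mean log2(value + 1), was -2.82 (SE 0.95, 95% interval -4.94 to -0.70, limma adjusted p = 0.0578 over the 466 genes).

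Syn1 (ENSMUSG00000037217, chromosome X, positions 20860511 to 20921004, minus strand) had 8.85, 14.3 and 8.09 normalised reads in knockouts 1, 2 and 3. In controls 1, 2 and 3 it had 13.7, 32.0 and 34.2. The groups overlapped, since knockout 2 and control 1 had 14 recovered reads each and the normalised value was higher in knockout 2. Syn1 thus differed least among the 4 genes, at 10.4 ± 3.38 against 26.7 ± 11.3 (SD, n = 3 each), a 2.56-fold difference of means. Its limma log2 fold change was -1.22 (SE 0.71, 95% interval -2.80 to 0.37, limma adjusted p = 0.150). This became 0.26 (limma adjusted p = 0.783) after rescaling each sample by its median ratio over the listed genes, which moved the median over all 466 genes by 1.03.

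The Syn1 span contains Timp1, a metalloproteinase inhibitor gene on the other strand, in an intron. Their annotated exons share 0 bases, and 9 exon bases of Syn1 are shared with its neighbour Araf. Timp1 was also in the table, at 0, 1.02 and 0 normalised reads in knockouts 1, 2 and 3 and 2.94, 0.970 and 40.1 in controls 1, 2 and 3. In recovered reads, Timp1 had 1 and 41 in controls 2 and 3, and Syn1 had 33 and 35. Whether any Timp1 reads entered the Syn1 count was not tested.

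Dnm1 (ENSMUSG00000026825, chromosome 2, positions 32308471 to 32353338, minus strand) had 8.85, 20.4 and 6.07 normalised reads in knockouts 1, 2 and 3. In controls 1, 2 and 3 it had 27.5, 35.9 and 59.7. The groups did not overlap, and the libraries fell in the same order as for Snap25, from control 3 down through controls 2 and 1 to knockouts 2, 1 and 3. The means were 11.8 ± 7.61 and 41.0 ± 16.7 (SD, n = 3 each), 3.48-fold apart. They were 5.50-fold apart without knockout 2 and 2.69-fold apart without control 3. The limma log2 fold change was -1.81 (SE 0.73, 95% interval -3.43 to -0.18, limma adjusted p = 0.0764).

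Thy1 (ENSMUSG00000032011, chromosome 9, positions 44043384 to 44048579, plus strand) had 5.90, 22.5 and 1.01 normalised reads in knockouts 1, 2 and 3. In controls 1, 2 and 3 it had 17.7, 42.7 and 542. Control 3 stood far above all other libraries, and knockout 2 lay above control 1, so the groups overlapped although the means were 9.79 ± 11.2 and 201 ± 296 (SD, n = 3 each). The 20.5-fold difference of means was 3.08-fold without control 3 and 58.1-fold without knockout 2. Control 3 held 90.0% of the Thy1 sum of the 3 controls, against 58.1% for Snap25, 48.5% for Dnm1 and 42.8% for Syn1. The median of this share over the 410 lower genes was 44.2%, and 33 of them, Thy1 included, had a share at least as high as Thy1. The limma log2 fold change of Thy1 was -3.47 (SE 1.30, 95% interval -6.39 to -0.55, limma adjusted p = 0.0677), and -2.05 without control 3.

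**Figure D1:**
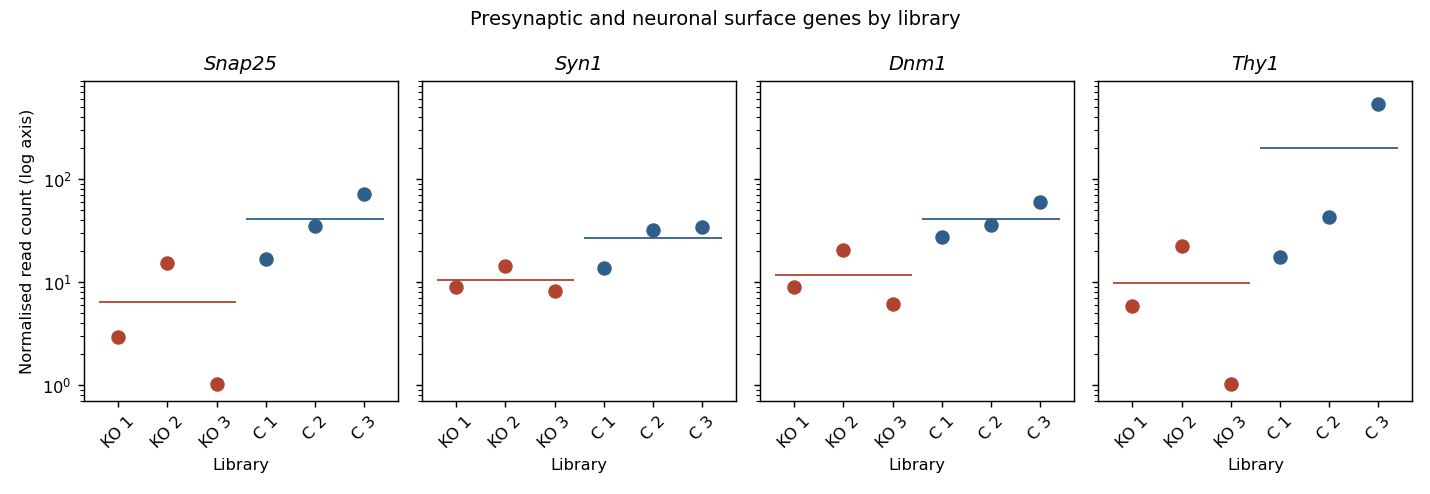
Normalised read count (log axis) of Snap25, Syn1, Dnm1 and Thy1 in each of the 3 knockout (KO) and 3 control (C) libraries, with points for libraries and horizontal lines for group means. Knockout 2 is the highest knockout and control 3 the highest control for each gene, and the Thy1 point of control 3, at 542, stands apart.

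Compared per kilobase of annotated exon, Thy1 was the highest of the 4 genes in controls, at a mean level of 67.0 normalised reads per kilobase, against 8.08 for Syn1, 7.81 for Dnm1 and 6.04 for Snap25. Its per-kilobase level was 5.90, 14.2 and 181 in controls 1, 2 and 3. In control 1 it was close to Dnm1, at 5.23, and in control 2 it was above Syn1, the next highest at 9.70. The size of the gap in means thus rests mainly on control 3. In knockouts the means were 3.27 for Thy1, 3.16 for Syn1, 2.24 for Dnm1 and 0.946 for Snap25 per kilobase. Across controls the per-kilobase level ran from 4.16 to 10.4 for Syn1, 5.23 to 11.4 for Dnm1 and 2.46 to 10.5 for Snap25, ranges that overlap. Within each of the 6 libraries Snap25 was below Dnm1 per kilobase, at 2.46 and 5.23 in control 1, 5.14 and 6.84 in control 2 and 10.5 and 11.4 in control 3. By recovered reads Snap25 was above Dnm1 in control 3, at 73 and 61, and below Dnm1 in the other libraries. The lengths join the exons of all annotated transcripts, so the per-kilobase order depends on them.

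By limma, 0 of the 4 genes passed an adjusted p of 0.05, as did 0 of all 466 (0.00%). At an unadjusted limma p under 0.05, 3 of the 4 genes were lower (Snap25, Dnm1 and Thy1), beside 46.4% of all listed genes. The groups did not overlap for 2 of the 4, beside 45.3% of listed genes that were lower without overlap, so this count is near the background. On the recovered reads, edgeR's quasi-likelihood test called 0 of the 4 and 0.00% of all, while DESeq2 called 1, Thy1 (DESeq2 adjusted p = 0.0243), beside 10.3% of all. Without control 3 the limma adjusted p of Thy1 was 0.211, and DESeq2 was not refitted without it. These adjusted p-values cover only 466 genes already chosen at a deposited p below 0.05. They are therefore too small as false discovery rates over all genes. Over the implied 19107 genes, the authors' deposited adjusted p of Thy1 was 0.821.

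The authors' deposited table gives log2 fold changes of -2.68 for Snap25, -1.36 for Syn1, -1.80 for Dnm1 and -4.36 for Thy1. Adjusted p-values from the authors' deposited table were 0.451 for Snap25, 0.682 for Dnm1, 0.821 for Thy1 and 1.00 for Syn1, so 0 of the 4 passed 0.05 there, beside 3.00% of the listed genes. By p in the authors' deposited table, Snap25 ranked 64, Dnm1 101, Thy1 142 and Syn1 388 of 466.

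**Figure D2:**
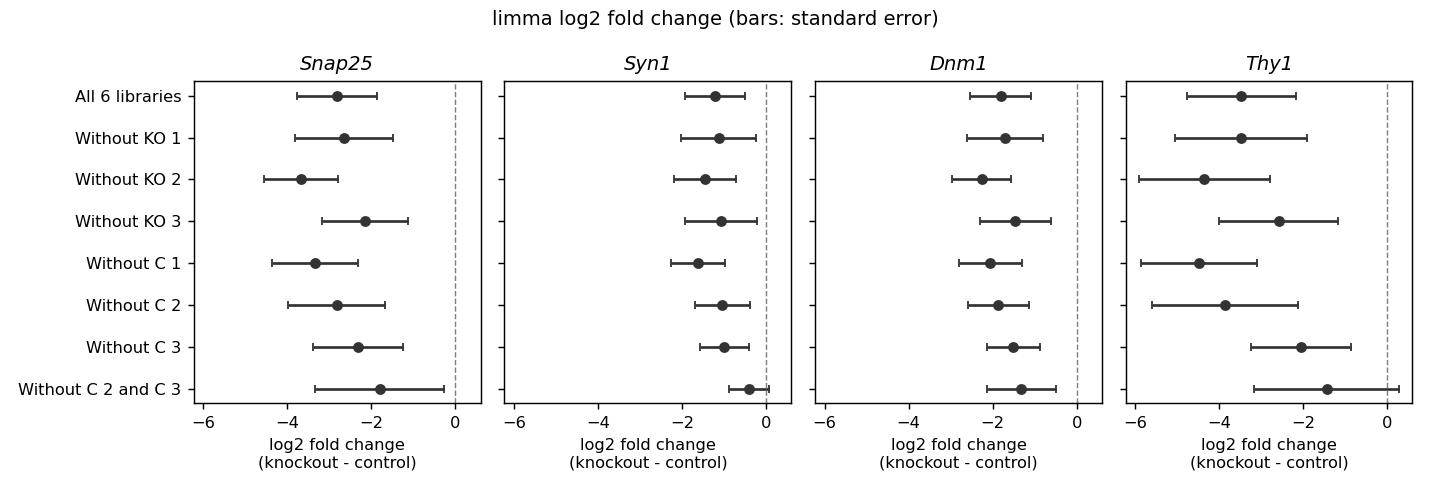
limma log2 fold change (knockout minus control, horizontal axis) with its standard error for the 4 genes, with all 6 libraries and with libraries left out. All values lie below 0, from -4.48 for Thy1 without control 1 to -0.41 for Syn1 without controls 2 and 3.

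The 4 genes shared an order of libraries within each group. Control 3 was the highest library for all 4, as for 48.1% of all listed genes, and knockout 2 was the highest knockout for all 4, as for 41.2%. Knockout 3 was the lowest library for all 4, and it had 0 reads for 179 of all 466 listed genes. How many listed genes were lowest there was not counted. Pearson's r of log2(value + 1) over the 6 samples was 0.995 between Snap25 and Dnm1 and lowest, at 0.899, between Syn1 and Thy1. With group means removed, these were 0.995 and 0.792. The values share libraries and size factors, and all genes were selected for the same group difference, which raises r between any pair.

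Pairs of genes were also compared by the share of one among the recovered reads of both, which does not depend on the scaling of a library. The share of Thy1 among Thy1 and Snap25 reads was 51.4% in control 1 (18 of 35 reads, exact Clopper-Pearson 95% interval 34.0 to 68.6%) and 55.0% in control 2 (44 of 80, 43.5 to 66.2%). In control 3 it was 88.4% (554 of 627, 85.6 to 90.8%), above the intervals of both other controls. The knockout libraries gave 60.4% when summed (29 of 48, 45.3 to 74.2%), an interval that contains the values of controls 1 and 2 and not that of control 3. Thy1 was thus near Snap25 in read number in controls 1 and 2 and far above it in control 3. All such intervals cover counting error only.

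For Dnm1 beside Snap25 the share was 62.2%, 50.7% and 45.5% in controls 1, 2 and 3, and the intervals of the 3 overlapped. The knockouts summed to 64.8% (35 of 54 reads, 50.6 to 77.3%) and the controls held 126 of 252 (43.7 to 56.3%), with overlapping intervals. For Syn1 beside Snap25 it was 45.2%, 47.8% and 32.4% in controls 1, 2 and 3. The knockouts summed to 62.0% (31 of 50 reads, 47.2 to 75.3%) against 39.4% in controls (82 of 208, 32.7 to 46.4%), and these intervals do not overlap. In knockout 2 the share was 48.3%, close to controls 1 and 2, and it was 75.0% in knockout 1 and 88.9% in knockout 3, which held 12 and 9 reads of both genes. Controls 1 and 2 alone summed to 47.0% (47 of 100 reads, 36.9 to 57.2%), which overlaps the interval of the knockouts. The summed intervals thus did not separate without control 3, whose removal also left fewer reads and a wider interval.

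**Figure D3:**
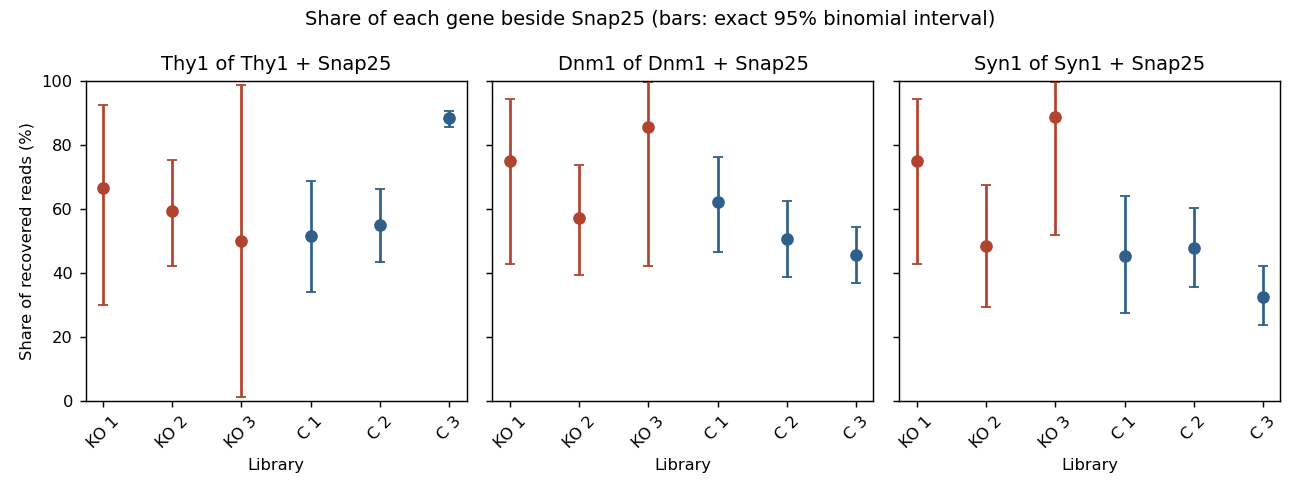
Share (%) of Thy1, Dnm1 or Syn1 among its own recovered reads plus those of Snap25 in each knockout (KO) and control (C) library, with exact 95% binomial intervals as bars. The Thy1 share of control 3, 88.4%, lies above those of controls 1 and 2, at 51.4% and 55.0%.

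Other genes of the vesicle cycle and of neurons were read from 5 lists holding 100 genes with the 4 described above. In the table were 18 of these, the 4 and 14 more, and all 14 were lower in the knockout, as were 88.0% of all listed genes. By limma, 0 of the 14 passed at an adjusted p of 0.05, while the unadjusted p was under 0.05 for 11, beside 46.4% of all listed genes that were lower at this p. The groups did not overlap for 12 of the 14, beside 45.3% of all listed genes that were lower without overlap. Their median limma log2 fold change was -2.52, against -1.99 over all 466 genes. The authors had selected each of these genes on the same samples, and the other 82 genes of the lists were not analysed here.

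Among fusion genes, Cplx2 and Syt1 were in the table beside Snap25, of 19 in that list. Syt1, the calcium sensor of fast release, had 1.97, 6.13 and 0 normalised reads in knockouts 1, 2 and 3 and 7.85, 14.5 and 57.7 in controls 1, 2 and 3. Cplx2, which encodes the SNARE clamp complexin 2, stood at 6.67 ± 5.83 in knockouts and 29.3 ± 20.6 in controls (SD, n = 3 each). Both were highest in control 3, as were 48.1% of all listed genes, and had groups that did not overlap, as did 45.3% on the lower side.

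Of 17 genes for tethering and the vesicle membrane, Syn2, Slc17a7 and Sncb were in the table beside Syn1. Slc17a7, the vesicular glutamate transporter of cortical excitatory neurons, had 0.983, 7.15 and 0 normalised reads in knockouts 1, 2 and 3 and 9.81, 15.5 and 46.0 in controls 1, 2 and 3. Sncb, which encodes beta-synuclein, was even across controls, at 16.7, 11.6 and 13.7, against 0, 3.06 and 1.01 in knockouts 1, 2 and 3. Syn2, the synapsin II gene, had 0, 4.08 and 0 in knockouts 1, 2 and 3 and 2.94, 9.70 and 28.4 in controls 1, 2 and 3, so its groups overlapped as those of Syn1 did.

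Of 19 retrieval genes, Snap91, which encodes a clathrin assembly protein of synaptic vesicles, was in the table beside Dnm1. Its pattern was unlike that of Dnm1, with 12.8, 3.06 and 1.01 normalised reads in knockouts 1, 2 and 3 and 5.89, 74.7 and 18.6 in controls 1, 2 and 3. Control 2 was its highest library, and knockout 1 lay above control 1.

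Of 23 neuronal surface and adhesion genes, Nfasc, Cntn2, Nrxn3 and Cadm2 were in the table beside Thy1. In controls 1, 2 and 3, Nfasc, a cell adhesion gene of the axon initial segment and node, had 14.7, 62.1 and 13.7 normalised reads. Cntn2, an axonal contactin gene, had 4.91, 10.7 and 10.8 in controls 1, 2 and 3, and Cadm2, a synaptic adhesion gene, had 16.7, 23.3 and 13.7. Nrxn3, a presynaptic neurexin gene, stood at 7.80 ± 1.91 in controls and 0.655 ± 1.14 in knockouts (SD, n = 3 each). The peak of Thy1 in control 3 was thus not present in these 4 surface genes, of which 3 were highest in control 2. Of all 466 listed genes, 173 were highest in control 2.

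General neuron markers in the table were Tubb3, Mapt, Nefh and Stmn3, of 22. Mapt, the tau gene, had 12.8, 8.17 and 0 normalised reads in knockouts 1, 2 and 3 and 21.6, 20.4 and 30.3 in controls 1, 2 and 3. Stmn3, a neuronal stathmin gene, stood at 0.681 ± 1.18 against 12.7 ± 6.87, and Nefh, the heavy neurofilament gene, at 1.35 ± 0.603 against 13.3 ± 9.47 (SD, n = 3 each). Tubb3, a neuronal tubulin gene, was at 1.67 ± 0.563 in knockouts (SD, n = 3) and at 3.92, 2.91 and 23.5 in controls 1, 2 and 3. Among these 4, all but Nefh were highest in control 3.

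**Figure D4:**
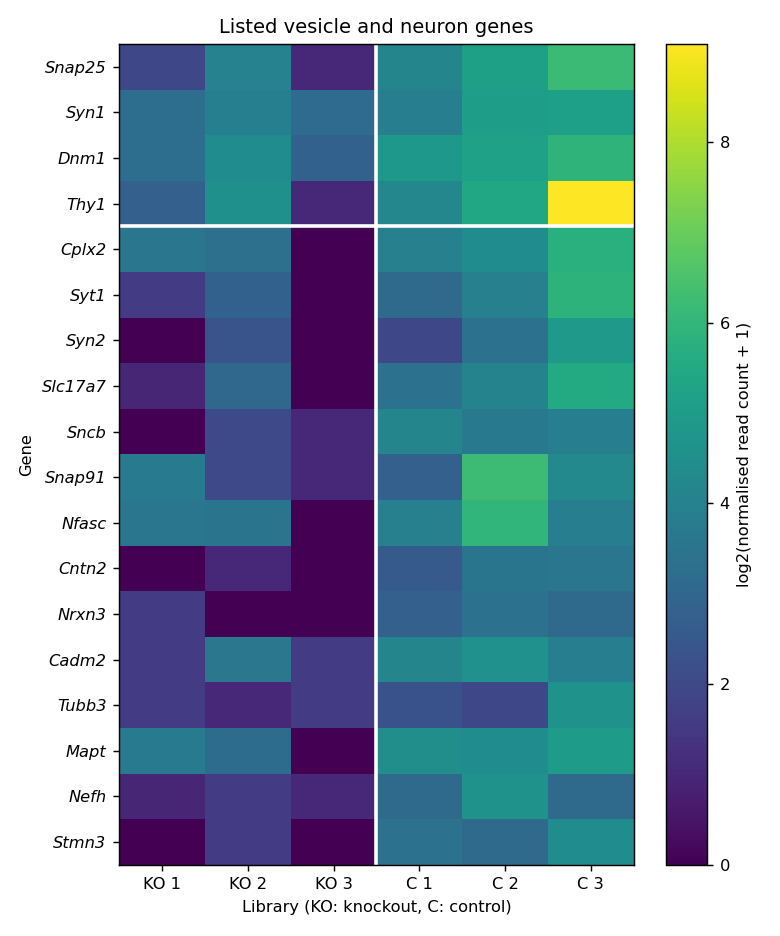
log2(normalised read count + 1) as colour for the 4 genes (above the white line) and the 14 other listed vesicle and neuron genes, by knockout (KO) and control (C) library. The highest library was control 3 for 8 of the 14, control 2 for 5 and control 1 for 1, and knockout 3 has 0 reads for 9 of them.

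The genes most like each of the 4 over the 6 samples were taken by Pearson's r of log2(value + 1) among 211 protein-coding candidates, whose median r with the 4 genes was 0.72 to 0.79. Nearest to Snap25 were Npdc1 (r = 0.997), a neural differentiation gene, Slc17a7 (r = 0.996) and Sept3 (r = 0.983), a septin gene of neurons. Nearest to Dnm1 were Slc17a7 (r = 0.998), Npdc1 (r = 0.990) and Syt1 (r = 0.979). Snap25 and Dnm1 thus had 2 of their 3 nearest genes in common.

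Nearest to Thy1 were Sod3 (r = 0.995), which encodes extracellular superoxide dismutase, Igfbp7 (r = 0.987), which encodes a secreted IGF-binding protein, and Syt1 (r = 0.985). In controls 1, 2 and 3, Igfbp7 had 4.91, 34.9 and 385 normalised reads and Sod3 had 6.87, 22.3 and 140, so both peaked in control 3 as Thy1 did. Nearest to Syn1 were Cttn (r = 0.995), the cortactin gene, Pdpn (r = 0.983), the podoplanin gene, and Pfn2 (r = 0.982), a profilin gene. In knockouts Pfn2 lay between 23.6 and 30.6 normalised reads, and controls 1, 2 and 3 had 38.3, 67.9 and 65.6. These r describe 6 points in 2 groups and carry no test.

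Markers of other cell types moved with the 4 genes in part. The summed level of the 14 neuron genes was 57.0, 68.4 and 7.08 normalised reads in knockouts 1, 2 and 3 and 143, 307 and 345 in controls 1, 2 and 3. Of 13 astrocyte markers, 3 were in the table (Gja1, Sox9 and Htra1), with sums of 3.04 to 22.5 in knockouts and 10.8 to 143 in controls. Of 15 mural and fibroblast markers, 3 were in the table (Acta2, Myl9 and Igfbp2), with sums of 33.7 to 73.7 in knockouts and 105 to 388 in controls. These sums did not overlap, but the groups overlapped for each of the 3 genes. Acta2 had 25.6, 4.08 and 26.3 in knockouts 1, 2 and 3 and 26.5, 22.3 and 189 in controls 1, 2 and 3. The contractile genes Acta2 and Myl9 were highest in control 3, with Myl9 at 0.981, 1.94 and 66.5 normalised reads in the controls in order. Igfbp2 was highest in control 2 and lowest of the controls in control 3, at 77.5, 364 and 29.4 in the same order.

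Of 12 T and NK cell markers, Bcl11b was in the table, at 0 reads in all 3 knockouts and 0.981, 0.970 and 18.6 normalised reads in controls 1, 2 and 3. Bcl11b is also expressed by projection neurons. Of 12 endothelial markers, Pltp was in the table, at 33.4 to 62.9 in knockouts and 62.6 to 204 in controls. Of 6 erythroid genes, Hba-a1 and Hbb-bs were in the table, with sums of 0 to 28.6 in knockouts and 28.5 to 268 in controls. The part of these cell types in the Thy1, Snap25, Dnm1 and Syn1 values was not tested.

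Choroid plexus and ependymal markers, 7 of 12 in the table, had another order of libraries, with sums of 3487, 19196 and 362 normalised reads in controls 1, 2 and 3 and 590 to 2034 in knockouts. All 7 were highest in control 2, where none of the 4 genes had its highest value. Of 16 oligodendrocyte markers 0 were in the table, and their levels were not analysed here.

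**Figure D5:**
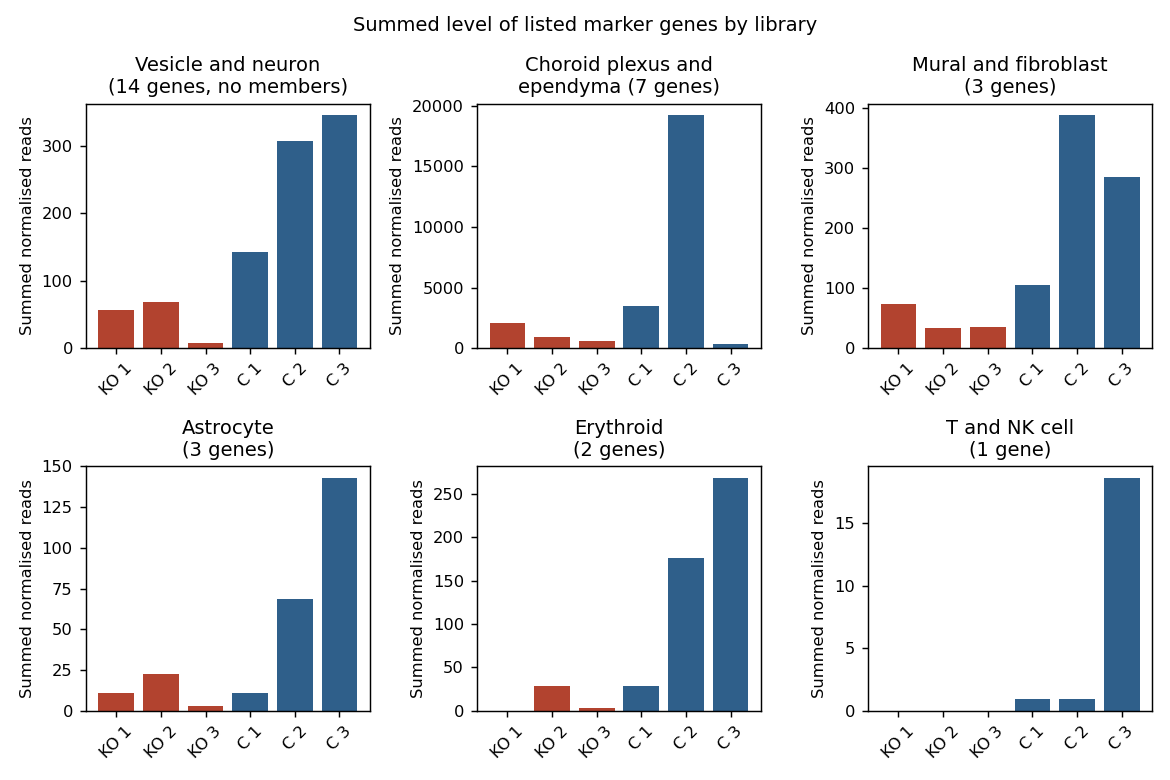
Summed normalised reads (bars, linear axes from 0) of the listed markers of 6 kinds in each knockout (KO) and control (C) library, without Snap25, Syn1, Dnm1 and Thy1. The neuron sum is highest in controls 3 and 2, at 345 and 307, and the choroid plexus sum is highest in control 2, at 19196.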

How the data were processed

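Poly(A) RNA of 3 knockout and 3 control samples was sequenced in paired reads of 150 bases (extract protocol of the labels), and groups were taken from the sample titles. How many mice gave each repetition is not stated, so every p-value reflects the variation among these libraries, part of which may be technical. Per the submitters' processing notes, the tools were R 3.6.1, DESeq2, RSEM 1.2.30, HISAT2 and cutadapt 1.11 on GRCm38, listed without roles.

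The deposited table holds normalised read counts, a signal value made by the authors, of which 100% were whole multiples of 1 read (tolerance 1e-06). The authors deposited a log2 fold change, a p-value and an adjusted p-value, the last implying 19107 genes adjusted over. Each of the 466 genes had a deposited p below 0.05 and a deposited log2 fold change beyond 1 in size.

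All genes were fitted together in limma 3.58.1 (R 4.3.3) on log2(value + 1), with the variance trend and Benjamini-Hochberg adjustment, two-sided, at 0.05. Alternatives included edgeR 4.0.16 (0 genes called) and DESeq2 1.42.0 (48 called) on the recovered reads. All 3 were also run on simulated counts, with genes raised in the knockout and the same spread setting for every gene. In the data most listed genes were lower in the knockout, so that run gives no check of the calls here. Annotation was GENCODE vM21, whose spans and exon lengths equal the deposited ones for the 4 genes. Whether reads were counted by strand was not stated in the sources used. Reads in exon bases shared by genes on opposite strands therefore cannot be told apart. Named genes were the 4, all listed genes of the 5 vesicle and neuron lists, and the 3 most alike protein-coding genes (mean of at least 10) per gene. Results of some genes of these lists are not reported here. The genes and lists were chosen with earlier results of these data known.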

Additional observations from a re-analysis of the deposited data

How the results depend on the processing

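Snap25, Dnm1 and Thy1 stayed lower in the knockout under all 15 alternatives run, and Syn1 under 14 of 15. This direction came with the selection of the genes. Syn1 turned to a log2 fold change of 0.26 after rescaling each sample by its median ratio over the listed genes. Dnm1 moved from -1.81 to -0.32 under this rescaling (limma adjusted p = 0.761), Snap25 to -1.48 and Thy1 to -2.10. By construction, the rescaling lifts fold changes where most genes are lower. With 1 library left out, the log2 fold change ranged from -3.67 to -2.16 for Snap25, -1.62 to -0.99 for Syn1, -2.26 to -1.46 for Dnm1 and -4.48 to -2.05 for Thy1. Without control 1, limma called Snap25 (-3.33) and Thy1 (-4.48), each with an adjusted p of 0.0462, so the number of the 4 genes called ranged from 0 to 2. DESeq2 called 1 of the 4, Thy1, at -4.36. The adjusted p over all alternatives ranged from 0.0462 to 0.501 for Snap25, 0.0639 to 0.783 for Syn1, 0.0575 to 0.761 for Dnm1 and 0.0243 to 0.607 for Thy1. Over the 466 genes, limma called 0, 120 with a pseudocount of 0.5, 1 with a mean of at least 10, 56 after rescaling (10 lower) and 54 without controls 2 and 3 together, and DESeq2 called 48. Rescaling moved the share of lower genes from 88.0% to 76.6%. With 1 library left out the count was 0 to 196, at 196 without control 1 and 36 without control 3. With the replicate number as a block limma called 4 genes and 0 of the 4 described here. Deviations of same-numbered samples correlated at -0.04, -0.04 and 0.07, and 0 of the 3 knockouts correlated best with the control of its own number. With 3 samples per group, these values cannot show whether same-numbered samples shared more than a number. The cause of the changes between settings was not tested. The low values rest on few reads: Snap25 and Thy1 had 1 read each in knockout 3.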
